A study of Ovis aries with 18 samples.

Results

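The rows described here are those listed with the seed of miR-450a, miR-450b or miR-542-3p, together with X_35722, a row with the miR-16b seed that is numbered beside them. They were chosen by a name or seed name of miR-424, miR-503, miR-542, miR-450a or miR-450b, and X_35722 by its identifier. This gave 5 of 495 rows in the table for extracellular vesicles and the same 5 among 761 rows in the table for endometrium. The seed is the short 5′ stretch of a miRNA that pairs with its targets. Of the 5 rows, 1 carries the miR-542-3p seed (X_35725), 2 the miR-450a seed (X_35728 and X_35730) and 1 the miR-450b seed (X_35732). No row of either table is listed as miR-424 or miR-503 or with either as its seed name, so the link to the cluster of those miRNAs rests here on its further members. All 5 are predicted loci without a sheep miRNA name, whose identifiers start with X, read here as the X chromosome. A seed in common does not make them the miRNA whose seed they carry.

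Small RNA was sequenced from ovariectomized ewes (Ovis aries) in 2 treatments of 5 ewes each. The P4+RU486 ewes received 50 mg of progesterone (P4) daily to day 14 and also 50 mg of RU486 (mifepristone, an antagonist of the progesterone receptor) daily on days 8 to 14. The P4 ewes received the same progesterone alone, so every ewe lacked ovaries and was given P4. Vesicles came from a 10 ml flush of the uterine lumen, passed through a 0.22 µm filter and isolated by size exclusion, and gave 4 libraries a treatment (R01 to R04 for P4+RU486, P01 to P04 for P4). Endometrium was dissected whole and gave 5 libraries a treatment, for which the authors' deposited comparison was used. The comparison asks how RU486 given with progesterone bears on miRNAs of the fluid and the tissue.

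In mammals the cluster of miR-424 and miR-503 is encoded on the X chromosome, and in human it runs from miR-424 and miR-503 through miR-542 and both copies of miR-450a to miR-450b. miR-424, whose rodent counterpart is called miR-322, and miR-503 belong to the wider miR-15/16 family, which restrains cyclins and other genes of the cell cycle. Human miR-542-3p is known to target survivin, an inhibitor of apoptosis, and both human miR-450a genes give the same mature miR-450a-5p. The identifiers of the rows ran in the order of the miR-16b seed (X_35722), the miR-542-3p seed (X_35725), the miR-450a seed (X_35728 and X_35730) and the miR-450b seed (X_35732). The deposited tables hold no coordinates, and whether X_35722 is a member of the cluster was not tested.

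In vesicles these were rows of low to middling abundance, and none of the 5 passed the test for a difference between the treatments. The miR-450b-seed row was the highest of the 5, with a smaller SD in P4+RU486 than in P4, the miR-450a-seed rows followed at lower levels, the miR-542-3p-seed row lay at the detection limit, and X_35722 had the largest fitted decrease of the 5. The listed reads were 101186 to 328453 in P4+RU486 libraries and 97202 to 1062646 in P4 libraries, and 1 read was worth 3.13 to 10.4 and 1.10 to 9.54 normalized CPM (reads scaled to an adjusted library size). The 3 shallowest libraries were R04 (101186 reads), P01 (97202) and P04 (97593). Lists of miRNAs typical of cell types held 0.992% to 1.56% of the reads in P4+RU486 and 0.932% to 2.59% in P4 for epithelium (3 of 5 markers matched, miR-141 and miR-429 without a row), and 0.991% to 1.45% and 1.07% to 1.73% for smooth muscle (2 of 5). For leukocytes the range was 0.216% to 0.495% in P4+RU486 and 0.215% to 1.94% in P4 (4 of 5, miR-223 without a row), with the top of it in P01. Stroma had 0.0128% to 0.0604% and 0.00715% to 0.111% (2 of 3, miR-199b without a row, the top again in P01). The erythroid list had 0.175% to 0.553% and 0.0262% to 0.791% (1 of 3, miR-451 and miR-144 without a row). Liver or plasma had 0.00988% to 0.0131% and 0.0143% to 0.0576% (2 of 3, miR-122 without a row). The liver or plasma ranges did not overlap, and no list was tested for a difference. No row carried the endothelial miR-126. The row named miR-133 matched neither miR-133a nor miR-133b of the smooth-muscle list and is left out of that share.

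The miR-450b-seed row X_35732 was the most abundant of the 5, ranked 88 of 495 rows by mean normalized CPM. It was at 530.5 (R01), 488 (R02), 421 (R03) and 480.2 (R04) normalized CPM in P4+RU486 vesicles, against 102 (P01), 545 (P02), 336 (P03) and 200.4 (P04) in P4 vesicles. The P4+RU486 libraries lay close together, while P01 and P04 were low and P02 was the highest of all 8, so the treatments overlapped. The means were 480.0 ± 45.2 in P4+RU486 and 296 ± 192 in P4 (SD, n = 4 each). The log2 difference was 0.95 (SE 0.45, 95% interval -0.04 to 1.93, limma adjusted p = 0.334), so it did not pass. Its size moved with the libraries and the model. Without P01 it was 0.52 (limma adjusted p = 0.469), without P04 it was 0.85 (limma adjusted p = 0.546), and without P01, P04 and R04 together it was 0.16 (limma adjusted p = 0.799). With the log2 of each library's listed reads as a covariate it was 1.13 (SE 0.35, limma adjusted p = 0.152). On the recovered reads it was 0.66 with edgeR's quasi-likelihood test (adjusted p = 0.518) and 0.67 with DESeq2 (adjusted p = 0.999).

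The Poisson intervals of X_35732 did not all overlap between libraries. P01 held 13 reads of X_35732, with an exact Poisson 95% interval of 54.4 to 175 normalized CPM, P04 held 21 reads (124 to 306) and P02 held 291 (484 to 611). Such intervals take each read as a separate molecule and may be too narrow. They cover counting error only, because without molecular identifiers the reads of a PCR product cannot be told from those of separate molecules. Nor can fewer source cells and less RNA per cell be told apart in vesicle or tissue RNA. Over all 8 libraries the pooled level was 412 normalized CPM, and the intervals of 2 libraries (R03 and R04) held it. The leukocyte list took 1.94% of the reads in P01, against 0.215% to 0.572% in the other P4 libraries, and its part in the low value of P01 was not tested.

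The miR-450a-seed rows X_35728 and X_35730 carried nearly the same reads. They had equal counts in 7 of the 8 libraries, and in R02 X_35728 held 29 reads and X_35730 held 28. Reads of a mature miRNA with several genomic copies can be assigned to each copy, so the pair was read as a single signal and not summed. X_35730 was at 116 (R01), 87.7 (R02), 86.1 (R03) and 73.1 (R04) normalized CPM in P4+RU486 vesicles, against 134 (P01), 97.4 (P02), 123 (P03) and 95.4 (P04) in P4 vesicles. The treatments overlapped, with P01 the highest and R04 the lowest of the 8 libraries.

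The means of X_35730 were 90.8 ± 18.3 normalized CPM in P4+RU486 and 112 ± 18.95 in P4 (SD, n = 4 each), a rank of 124 of 495 rows. Its log2 difference was -0.31 (SE 0.35, 95% interval -1.07 to 0.45, limma adjusted p = 0.793), and that of X_35728 was -0.30 (SE 0.35, limma adjusted p = 0.803). Changes between a 2.10-fold decrease and a 1.37-fold increase were thus within the interval of X_35730. Unlike X_35732, these rows had a Poisson interval that held the pooled level of 107 normalized CPM in each of the 8 libraries, from the 7 reads of R04 to the 112 reads of P03. These intervals are wide, 29.4 to 151 normalized CPM in R04, so unequal levels between ewes may go undetected at this depth.

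**Figure D1:**
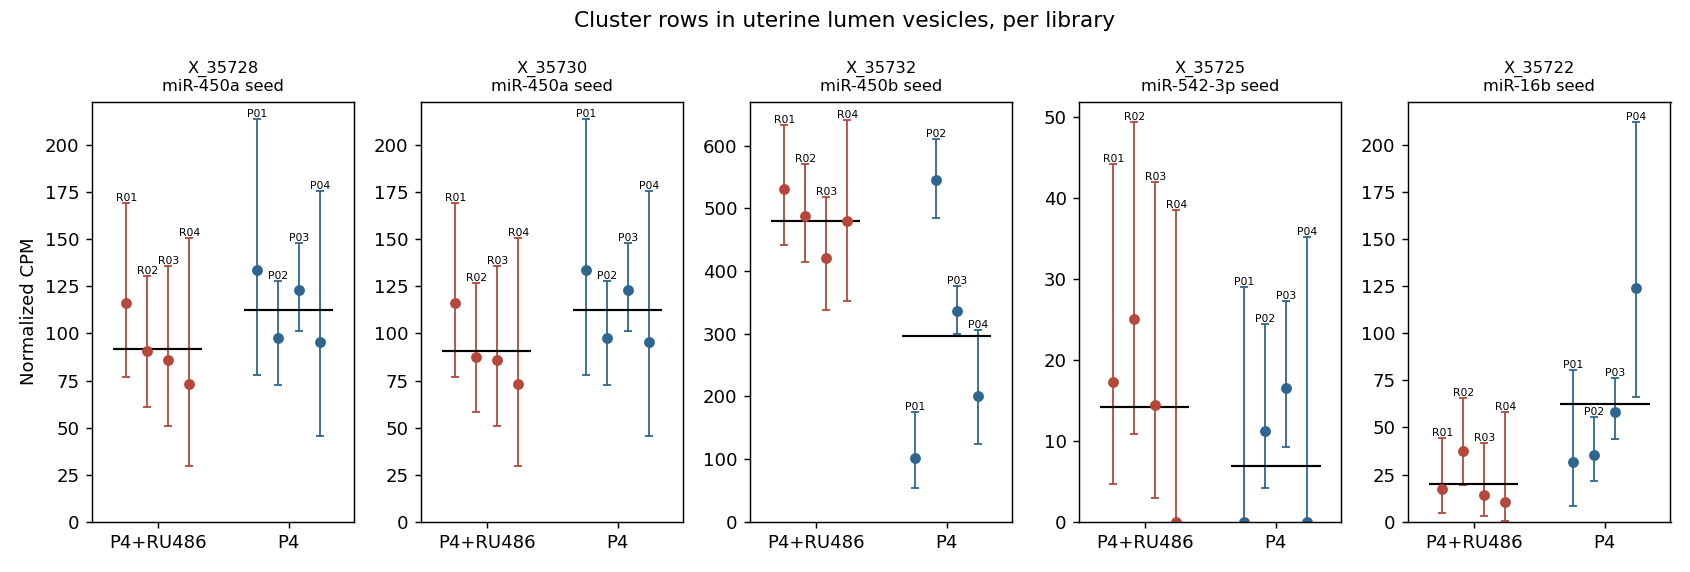
Normalized CPM of each row (vertical axes, from 0) in the P4+RU486 and P4 vesicle libraries. Points are libraries with exact Poisson 95% intervals for counting error, and horizontal lines are group means. For X_35732 the P4+RU486 libraries lie between 421 and 530.5 and the P4 libraries between 102 and 545.

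The miR-542-3p-seed row X_35725 was at the limit of detection. It had 4 (R01), 8 (R02), 3 (R03) and 0 (R04) reads in P4+RU486 vesicles, against 0 (P01), 6 (P02), 15 (P03) and 0 (P04) in P4 vesicles. Libraries without a read were the 3 shallowest. There a count of 0 allows up to 31.3 (R04), 23.6 (P01) and 28.6 (P04) normalized CPM at 3 reads, all above the pooled level of 14.2. A single read was worth 10.4 (R04), 7.86 (P01) and 9.54 (P04) normalized CPM, below the pooled level, so a read could have been seen. These zeros are no proof of absence, and whether the level was lower in these libraries was not tested.

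In the libraries with reads X_35725 was at 17.2 (R01), 25.1 (R02) and 14.3 (R03) normalized CPM in P4+RU486, against 11.2 (P02) and 16.5 (P03) in P4. These 5 values leave out the libraries in which the row had no read, so no comparison is drawn from them. The log2 difference over all 8 libraries was 1.27 (SE 1.46, 95% interval -1.92 to 4.46, limma adjusted p = 0.793), and on the 5 deeper libraries it was 0.41 (SE 0.63). With R04 left out it was 2.34, and with P01 or P04 left out it was 0.63 each time. The Poisson intervals of all 8 libraries held the pooled level.

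X_35722, with the miR-16b seed, had the largest fitted decrease of the 5 rows in P4+RU486 and the smallest p, without passing the test. It was at 17.2 (R01), 37.6 (R02), 14.3 (R03) and 10.4 (R04) normalized CPM in P4+RU486 vesicles, against 31.4 (P01), 35.6 (P02), 58.2 (P03) and 124 (P04) in P4 vesicles. R02 lay above P01 and P02, so the treatments overlapped, while R01, R03 and R04 lay below every P4 library. These values stand on 20 reads over the P4+RU486 libraries and 89 over the P4 libraries, down to 1 read in R04. The means were 19.9 ± 12.1 in P4+RU486 and 62.3 ± 42.8 in P4 (SD, n = 4 each), a ratio of 0.319.

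The log2 difference of X_35722 was -1.54 (SE 0.61, 95% interval -2.87 to -0.20, limma adjusted p = 0.299). An unadjusted p under 0.05 was met by 1 of the 5 rows, X_35722, against 14.4% of all 229 rows tested. This count moved with the setting. With scaling by library totals it was 2, X_35732 being the other row, against 38 of 229 rows tested. Without P02 it was also 2, against 31 of 230. It was 0 without P04, against 30 of 230, and also 0 without R03 or R04. The highest P4 value of X_35722, in P04, came from 13 reads, with a Poisson interval of 66.0 to 212 normalized CPM. Without P04 the log2 difference was -1.14 (limma adjusted p = 0.529), and without the 3 shallowest libraries it was -1.07 (limma adjusted p = 0.438).

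At the adjusted threshold of 0.05, 0 of the 5 rows were called by limma, against 0.437% of all tested rows (1 of 229). On the recovered reads the count was also 0 with edgeR's quasi-likelihood test, whose filter kept 3 of the 5, against 0.654% of all rows it tested. It was 0 with DESeq2 too, against 0.810%. In none of the 5 did the libraries of the treatments fail to overlap, against 10.0% of all tested rows. The median log2 difference was -0.30 over the 5 rows, with 2 above and 3 below 0, and 0.04 over all 229 rows, with 118 above and 111 below 0. The median SE was 0.45 over the 5 rows and 0.51 over all tested rows. Both medians of the 5 rows, and the count below 0, take X_35728 and X_35730 as 2 rows though they share reads. With that pair read as a single signal, the log2 differences were -1.54 (X_35722), -0.31 (X_35730), 0.95 (X_35732) and 1.27 (X_35725). No direction is thus drawn for the 5 rows together.

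**Figure D2:**
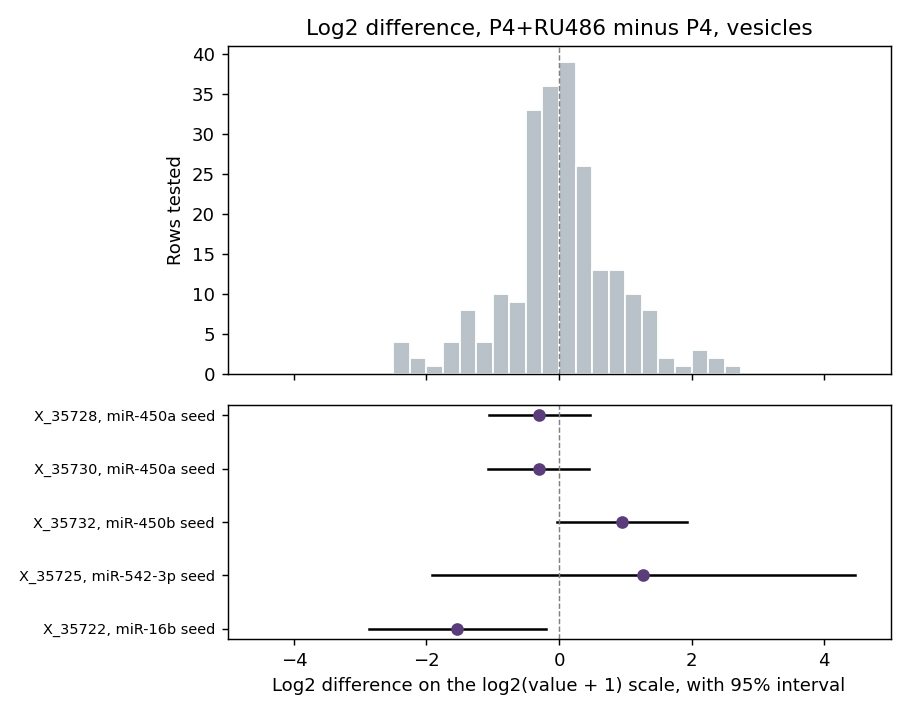
Log2 difference (horizontal axis, P4+RU486 minus P4, log2(value + 1) scale) of all 229 tested rows as a histogram, above the estimates of the 5 rows with their 95% intervals. In the reported fit the interval of X_35722, from -2.87 to -0.20, leaves out 0, and those of the other 4 rows hold it.

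In the authors' deposited table for vesicles, in which a positive fold is higher in P4, X_35722 stood at a fold of 2.19 (adjusted p = 0.03). It was 1 of 6 rows called as higher in P4 there, against 1.21% of the 495 rows, and its rank by adjusted p was 8. This call was known when X_35722 was chosen. The other 4 rows had folds in the authors' deposited table of 1.21 (X_35728), 1.22 (X_35730), -1.77 (X_35732) and -1.60 (X_35725), with adjusted p-values from 0.85 to 0.93. The sign of each of the 5 folds named the same higher treatment as the limma fit, which used the same libraries, so this is no independent result. On the reads recovered from the same table, edgeR's exact test without a filter gave X_35722 a log2 difference of -1.45 (P4+RU486 minus P4) with an adjusted p of 0.708, and edgeR's quasi-likelihood test without a filter gave -1.47 with an adjusted p of 0.512. No source used here gives the settings behind the authors' values.

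In the endometrium, 0 of the 5 rows were called in the authors' deposited table, against 1.18% of its 761 rows (9 called). That table does not name the numerator of its folds, so their signs are given as coded and no direction is drawn from them. The authors' deposited folds were -1.13 for X_35722 (adjusted p = 0.923), -1.07 for X_35725 (0.953), -1.19 for X_35732 (0.974) and 1.01 for both X_35728 and X_35730 (0.992). The median size of these folds over the 5 rows was 1.07, against 1.25 over all 761 rows. In the authors' deposited table for vesicles the medians were 1.60 over the 5 rows and 1.63 over all 495. For both tissue and vesicles, the median of the 5 rows counts X_35728 and X_35730 apart though they share reads. Its place against all rows is therefore not read as a result. X_35722 thus had an adjusted p under the threshold in the vesicle table and not in the endometrium table. The difference between the fluid and the tissue was not tested.

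Ratios between rows of the same library do not depend on how libraries were scaled. X_35732 had 4.56 (R01), 5.57 (R02), 4.89 (R03) and 6.57 (R04) reads per read of X_35730 in P4+RU486 vesicles, against 0.765 (P01), 5.596 (P02), 2.73 (P03) and 2.10 (P04) in P4 vesicles. The P4+RU486 ratios stood in a narrow band that P02 shared, while the 3 other P4 libraries lay below it. The exact binomial 95% interval of the ratio in P01, 0.342 to 1.67, lay below the intervals of all the P4+RU486 libraries, and that of P04, 0.947 to 4.99, overlapped them. The means were 5.40 ± 0.89 in P4+RU486 and 2.80 ± 2.04 in P4 (SD, n = 4 each), and the seeds of miR-450b and miR-450a thus kept no fixed proportion across P4 libraries.

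X_35722 had 0.148 (R01), 0.429 (R02), 0.167 (R03) and 0.143 (R04) reads per read of X_35730 in P4+RU486 vesicles, against 0.235 (P01), 0.365 (P02), 0.473 (P03) and 1.30 (P04) in P4 vesicles. P04 was the one library in which X_35722 held more reads than X_35730, 13 against 10. The ratio in R04 came from 1 read and had an interval of 0.00317 to 1.112, which spans most of the others. Medians were 0.157 in P4+RU486 and 0.419 in P4.

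**Figure D3:**
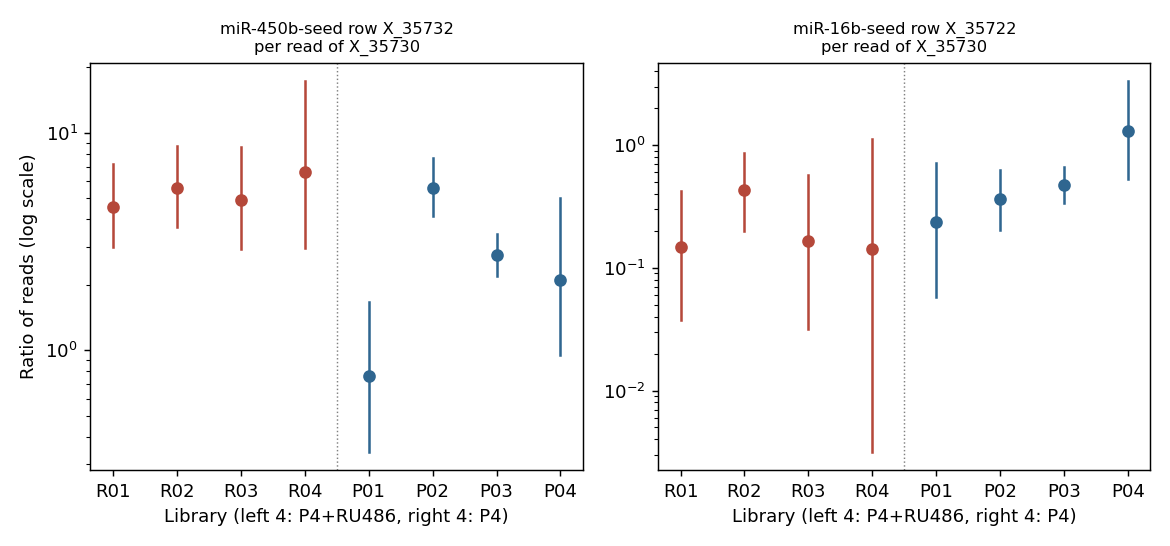
Reads of X_35732 (left) and X_35722 (right) per read of X_35730 within each vesicle library, on log axes, with exact binomial 95% intervals. The P4+RU486 libraries span 4.56 to 6.57 on the left, and the P4 libraries 0.765 to 5.596.

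Correlations between the rows across the 8 vesicle libraries had both signs. On the log2(value + 1) scale, Pearson's r was -0.54 between X_35732 and X_35730 (Spearman's rho -0.29), 0.35 between X_35722 and X_35730 (0.40), -0.43 between X_35722 and X_35732 (-0.26) and 0.65 between X_35725 and X_35732 (0.51). These points share library, depth and scaling, and the reads of X_35725 are few. X_35728 and X_35730 had an r of 0.998, as rows with shared reads do.

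Among 224 other tested rows, those most alike by Pearson's r over the 8 libraries differed from row to row of the cluster. The 3 highest of 224 correlations over 8 libraries can be high among unrelated rows too, and whether these exceed that was not tested. For X_35730 the closest was miR-125b (r = 0.86, rho = 0.90), at a mean of 3803 normalized CPM, followed by 2_15715 and 20_17933 with the miR-2284g seed (r = 0.80 and 0.79). X_35728 had the same 3 rows. X_35732 was most like 18_13301 with the miR-345-5p seed (r = 0.90), X_36364 with the miR-421 seed (r = 0.90) and X_35370 with the let-7f seed (r = 0.88), though the rank correlation with X_35370 was 0.43. X_35722 was most like 19_14400 with the miR-425-5p seed (r = 0.94, rho = 0.90), miR-30b (r = 0.86) and 3_26586 with the miR-615-3p seed (r = 0.80). X_35725, with its 3 zeros, was most like 14_8843 (r = 0.88), 24_21892 with the miR-20a seed (r = 0.85) and 21_19368 with the miR-2284j seed (r = 0.85).

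The miR-15/16 seed relatives comprised 6 vesicle rows, X_35722 among them, all with the miR-16b name or seed. Of the 5 other rows, 4 were tested and 0 were called, with a median log2 difference of -0.03, against 0.04 over all tested rows, and with 1 above and 3 below 0. The sheep miR-16b itself, the main carrier of this seed, was at 1570.3 ± 368 normalized CPM in P4+RU486 and 2178 ± 489 in P4 (SD, n = 4 each), and its log2 difference was -0.48 (SE 0.27, limma adjusted p = 0.461). Next came 10_4035, at 86.4 ± 37.2 in P4+RU486 and 75.2 ± 36.3 in P4 (SD, n = 4 each), with a log2 difference of 0.29 (SE 0.54), and 1_3299, with -0.03 (SE 0.57). X_35722 came behind miR-16b and 10_4035 by mean level and had the largest fitted difference of them. Reads of X_35722 were 0.0098 (R01), 0.0189 (R02), 0.0106 (R03) and 0.0088 (R04) per read of miR-16b in P4+RU486, against 0.0161 (P01), 0.0126 (P02), 0.0261 (P03) and 0.0734 (P04) in P4. This row thus carried a small part of the reads with the seed in every library.

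Besides the 5 rows themselves, 7 rows were numbered within 40 of them on X. Of these, 4 were tested and 0 were called, with log2 differences from -0.33 to -0.01 and a median of -0.24. The most abundant was X_35741 with the miR-92a seed, at 54066 ± 6104 normalized CPM in P4+RU486 and 61122 ± 12508 in P4 (SD, n = 4 each). Its values are identical to those of 10_3805, so the reads cannot be placed on X. X_35692, with the miR-504 seed, was at 263 ± 149 in P4+RU486 and 324 ± 141.8 in P4 (SD, n = 4 each), with a log2 difference of -0.32 (SE 0.45). X_35723, numbered between X_35722 and X_35725 and listed with the miR-6519 seed, was singled out after its values were seen and had 6 reads in all, each of them in P03.

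The rows numbered on X, the 5 left out, came to 43, of which 21 were tested, 0 were called and 8 lay above and 13 below 0, with a median log2 difference of -0.16. The list of the miR-106a to miR-363 cluster, which in human lies near the cluster of miR-424 and miR-503, had 7 rows, of which 3 were tested and 0 were called. Its fitted differences were -0.16 for X_35741 and 10_3805 and -0.40 for miR-19b, and miR-106a itself, also singled out after its values were seen, had 4 reads in all. Matching was by name or seed name, so the list also holds 10_3805, 10_3798 and 2_15108, which are not numbered on X. X_35741 and 10_3805 have identical values, so the list is not read as a measure of the cluster on X. In the RefSeq gene table of sheep assembly ARS-UI_Ramb_v3.0, used for names and order alone, MIR106A stands between the protein-coding genes CCDC160 and GPC3 on the X chromosome, with PHF6, HPRT1 and PLAC1 beyond CCDC160. In human the cluster of miR-424 and miR-503 lies between HPRT1 and PLAC1. No miRNA gene of that table matched a name of the cluster, so no position is given for the 5 rows.

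Together the 5 rows took 0.0757% at most and 0.0603% at least of the reads of a P4+RU486 library, and 0.0735% at most and 0.0525% at least of a P4 library. The means were 0.0675% ± 0.0070 in P4+RU486 and 0.0594% ± 0.0095 in P4 (SD, n = 4 each). With the shared miR-450a-seed reads counted once they were 0.0587% ± 0.0056 and 0.0475% ± 0.0122 (SD, n = 4 each). The ranges of the treatments overlapped either way. X_35732 held the most reads of the 5 rows, 1044, with X_35728 next at 272, so X_35732 weighs most in this share. X_35722, X_35728 and X_35730 were fitted in the other direction. The listed reads are sums over all rows, so reads shared between rows, such as those of X_35741 and 10_3805, count more than once in the denominator.

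The estimates kept their direction in all 98 recomputed values and passed the threshold in none. Those of X_35730 stayed between -0.43 and -0.19 and those of X_35722 between -1.88 and -1.07. X_35732 ranged from 0.16 to 1.33 and X_35725 from 0.41 to 2.34, with the lowest of both on the 5 deeper libraries. Settings that changed only the filter or merged identical rows left each estimate as it was, so its direction was fixed in advance there. The 98 values also count X_35728 and X_35730 apart though they share reads.

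**Figure D4:**
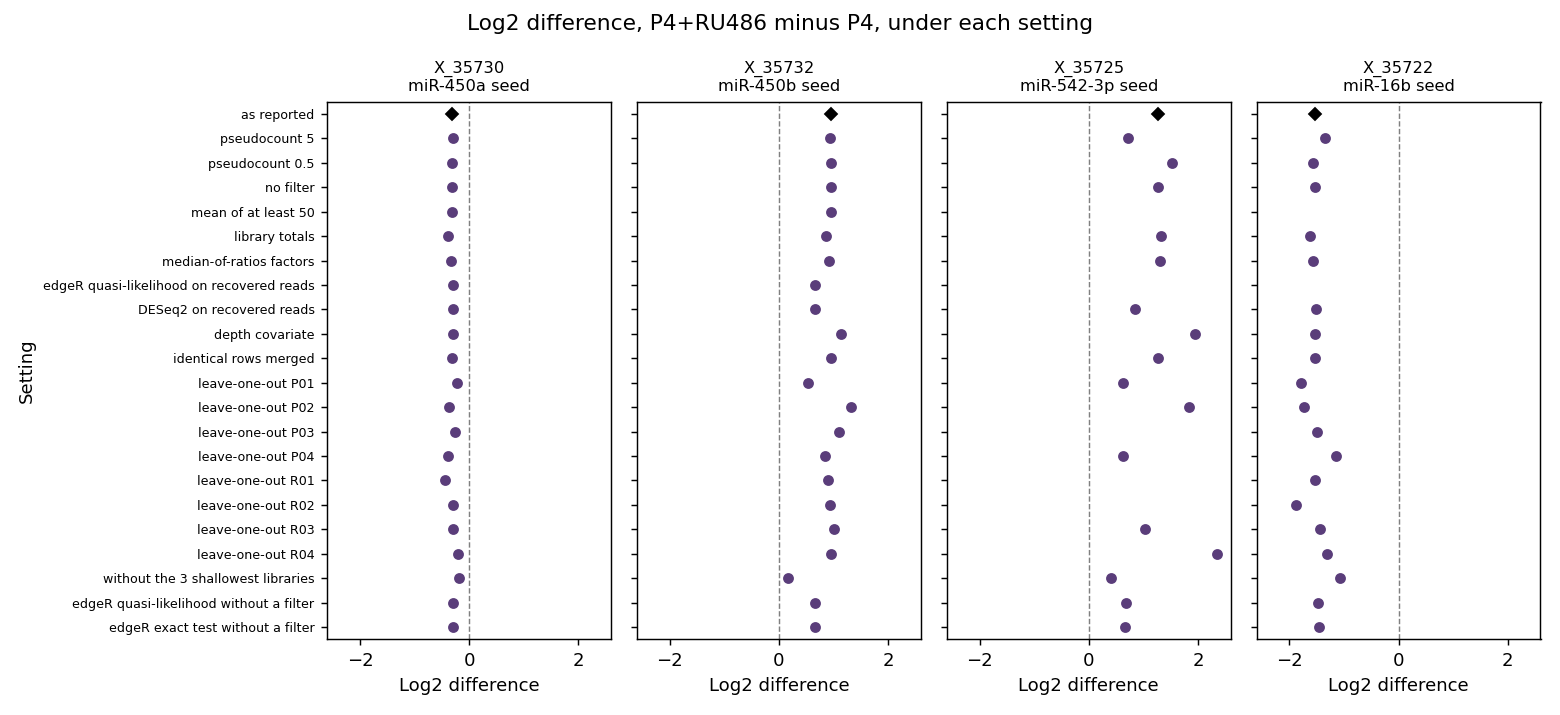
Log2 difference (horizontal axes, P4+RU486 minus P4) of 4 of the rows under each setting (vertical axis), with the reported fit as a black diamond. X_35732 lies at 0.16 without the 3 shallowest libraries and at 0.95 in the reported fit.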

How the data were processed

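Values of the vesicle table, a normalized signal deposited by the authors, are CPM on an adjusted scale of library size, as the values themselves show. Submitters' processing notes name cutadapt 1.11, the build Oar_v3.1 and edgeR. No source used here gives the aligner or the locus prediction. In each library 100% of values were whole multiples of 1 read (tolerance 0.1 read), so whole reads were recovered as counts. TMM library sizes computed from them differed from the deposited scale by a share of at most 2.75e-08. Both tables also hold the authors' signed fold score and adjusted p-value, per the file headers. The 10 endometrium columns whose names match no label were not used, so no test was run on endometrium libraries.

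The treatment of a vesicle column is read from its initial, and its ewe is not named. P4+RU486 was compared with P4 by limma 3.58.1 (trend, R 4.3.3) with a pseudocount of 1 on the log2 scale. The fit took the 229 rows that averaged 10 or more and was Benjamini-Hochberg adjusted over all of them (threshold 0.05). That scale understates changes of low rows, or overstates them where a library holds no read. Alternatives used edgeR 4.0.16 and DESeq2 1.42.0 on the recovered reads. The functions were tested on simulated data. Poisson and binomial intervals are exact at 95%.

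All 5 rows are named, with the 3 tested rows most alike to each by Pearson's r, and up to 4 rows of highest mean for each list. Lists were matched on the name or seed name. The members and lists were chosen with earlier results of these data known.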

Additional observations from a re-analysis of the deposited data

Results flagged for a closer look

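In the P4+RU486 libraries, R02 stood apart from R01, R03 and R04 in 2 ratios of reads, each with a gap that took most of the group's range. X_35722 had 0.429 reads per read of X_35730 in R02, against 0.143 to 0.167 in the other libraries of the treatment. Per read of miR-16b it had 0.0189 in R02, against 0.0088 to 0.0106. About 1 in 20 groups is marked in this way by chance, and 12 reads of X_35722 underlie both ratios.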

How the results depend on the processing

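Over 21 alternatives, 0 of the 5 rows were called each time, and no row reversed its direction. Alternatives that changed only the filter or merged identical rows could not reverse a direction, since they left each estimate as it was. The number of all vesicle rows called was 1 in the reported fit, 4 with DESeq2, 6 with listed depth as a covariate and 6 with edgeR's quasi-likelihood test without a filter, and from 0 to 2 with 1 library left out (0 without P04, R01, R03 or R04, and 2 without P02). The difference in the share of reads on the 5 rows, in which X_35732 weighs most, was 0.0082 percentage points, and from 0.0055 to 0.0129 with 1 library left out. It was 0.0153 with the most abundant row out of the denominator and 0.0111 with the nearly identical rows counted once. Leaving out the 3 shallowest libraries and the edgeR fits without a filter were chosen after seeing the data. The fit on rows averaging 50 or more and edgeR with its filter hold neither X_35722 nor X_35725, and X_35725 falls under the mean of 10 without P03, R01 or R02. Merging identical rows left X_35728 and X_35730 apart, since they differ by 1 read. Alternatives for the endometrium were not run, as its columns match no label. No paired analysis was possible because the treatments were given to different ewes and the columns carry no ewe. Other scalings moved the median of all rows by less than 0.1 on the log2 scale. P-values cover the spread between these libraries, and the depth of 4 libraries with low counts limits what could be detected.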
